A study of Mus musculus with 8 samples.

Results

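The 9 genes described here, Ly6c2, Ccr2, Cx3cr1, Fcgr3, Cd14, Adgre1, Cybb, Lyz2 and F13a1, are genes by which monocytes and macrophages are commonly recognized. They were chosen by symbol from the 54532 genes of the deposited count table, and each symbol matched 1 gene. Their raw read counts were compared between Zeb1-/- EpCAM+ and Zeb1-/- EpCAM- hematopoietic stem and progenitor cells (HSPCs).

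The series holds 8 RNA-Seq libraries, 4 from each fraction, made to learn which transcripts set EpCAM+ apart from EpCAM- HSPCs after loss of Zeb1, a zinc finger repressor of transcription. EpCAM is an adhesion glycoprotein of epithelia, and the sorting antibody against it defined the fractions. Both fractions were Lin- c-Kit+ Sca-1+ (LSK) bone marrow cells of C57BL/6 mice aged 8 to 12 weeks, and the labels name 4 mice per genotype without tying a library to a mouse. The mice carried floxed Zeb1 alleles (Zeb1 fl/fl) and Mx1-Cre, and cells were taken 14 days after pIpC dosing ended. Mx1-Cre is driven by an interferon-responsive promoter and pIpC, a synthetic double-stranded RNA, induces interferon, so deletion is not limited to blood cells. Every library therefore came from deleted, pIpC-treated mice, and the comparison holds no library from a control mouse. The lineage antibodies by which mature cells were removed included MAC1, which binds the product of Itgam, and GR1, which binds Ly6G and, to a lesser degree, Ly6C. In bulk samples of this kind, fewer cells of a type and less of a transcript per cell cannot be told apart.

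Monocytes arise in the bone marrow from myeloid progenitors that lie downstream of the LSK compartment, under the transcription factors PU.1 and IRF8 and the M-CSF receptor. Classical monocytes carry Ly6C and CCR2, leave the marrow along CCL2, and can become macrophages that carry F4/80, while patrolling monocytes carry high CX3CR1. Stem and progenitor cells can transcribe myeloid genes at low level before commitment, and dendritic cells, neutrophil precursors and monocytes share many of them, so none of the 9 genes belongs to monocytes alone.

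PU.1, the product of Spi1, binds purine-rich DNA with a GAGGAA core, and the 250 bases upstream of a start site are shown for the 3 genes in which this hexamer lies there and that were lower in EpCAM+ HSPCs in every numbered pair, followed by Lyz2, the gene that was higher in every pair. The sequences are from RefSeq, build GRCm38.p6, written 5′ to 3′ along the gene, all 4 on the minus strand of the chromosome, with the hexamer or its reverse complement in capitals. They cover chr15:75111972-75112221, chr13:37050245-37050494, chr1:171059404-171059653 and chr10:117282273-117282522 in this order.
Ly6c2: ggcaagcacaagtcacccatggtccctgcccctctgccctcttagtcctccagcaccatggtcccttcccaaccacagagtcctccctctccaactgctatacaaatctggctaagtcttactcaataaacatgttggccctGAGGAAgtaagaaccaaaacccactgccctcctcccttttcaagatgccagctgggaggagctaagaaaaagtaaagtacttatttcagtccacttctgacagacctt
F13a1: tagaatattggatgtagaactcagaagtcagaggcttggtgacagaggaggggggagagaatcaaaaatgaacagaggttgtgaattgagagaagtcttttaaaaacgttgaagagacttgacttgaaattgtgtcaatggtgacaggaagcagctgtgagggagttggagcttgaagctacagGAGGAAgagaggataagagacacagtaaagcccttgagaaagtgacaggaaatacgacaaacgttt
Fcgr3: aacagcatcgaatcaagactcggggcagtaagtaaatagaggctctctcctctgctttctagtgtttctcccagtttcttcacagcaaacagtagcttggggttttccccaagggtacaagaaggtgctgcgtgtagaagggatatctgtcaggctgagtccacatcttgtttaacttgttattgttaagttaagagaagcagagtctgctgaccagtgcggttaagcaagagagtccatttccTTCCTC
Lyz2: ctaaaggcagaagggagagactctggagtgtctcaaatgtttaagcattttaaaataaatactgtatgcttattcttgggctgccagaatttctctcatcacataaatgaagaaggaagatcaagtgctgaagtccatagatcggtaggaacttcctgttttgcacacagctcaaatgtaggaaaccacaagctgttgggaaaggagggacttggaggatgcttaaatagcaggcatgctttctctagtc

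The hexamer began 108 bases before the start site in Ly6c2 and 66 bases before it in F13a1, and ended directly before it in Fcgr3, where its letters ran on the opposite strand. Windows of 300 bases, which reach 50 bases past the start site, were read for 7 of the 9 genes. Cd14 was left out of this reading, and no window was at hand for Adgre1. GAGGAA was found on either strand in 4 of the 7 windows, against 28.3% of 32851 mouse promoter windows of the same length. The 4th was Cybb, where the letters lay 9 bases past the start site, on the opposite strand. Cx3cr1, which was also lower in every numbered pair, had no GAGGAA in its window, and neither had Ccr2 or Lyz2. Whether the hexamer goes with the direction of a gene was not tested. The hexamer CACCTG, the E-box that ZEB1 binds, was in none of the 7 windows and in 20.2% of all windows, and TTNNGNAAT, a C/EBP pattern searched on both strands, was in 1 of 7 (Ccr2) and in 11.5% of all. Where RefSeq lists more than 1 start site for a gene, the window it lists first was read. These are counts of letters in a window, and no binding was measured.

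Each library held between 14114491 and 17073546 counted reads, and 3 reads correspond to 0.168 to 0.222 CPM (counts of a gene per 1000000 reads of its library, after TMM scaling). Epcam, by which the cells were sorted, had 2818 to 3580 counts in EpCAM+ and 17 to 144 in EpCAM- libraries. Zeb1 reads remained in all 8 libraries, 261 to 373 counts in EpCAM+ and 129 to 214 in EpCAM- (log2 fold change, EpCAM+ over EpCAM-, 0.72, SE 0.17, edgeR adjusted p = 0.008), and gene counts do not separate a deleted allele from an intact one. Of 13560 genes that passed the filter on low counts, 5779 (42.6%) differed between the fractions at an adjusted p under 0.05 (quasi-likelihood test of edgeR, adjusted by Benjamini and Hochberg over all genes tested), with 2818 (20.8%) lower and 2961 (21.8%) higher in EpCAM+ HSPCs. The counts of calls in the gene lists below are to be read beside these shares and were not tested against them. The labels name no batch or date. They number the libraries 1 to 4 in each fraction without saying what a number shares, and libraries with the same number deviated together, so values are given in the order of replicates 1 to 4, and a paired value stands beside a result where it changes the call.

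More of the monocyte and macrophage genes were lower than higher in EpCAM+ HSPCs, and the gene with the highest mean level, Lyz2, was higher. F13a1, Fcgr3, Cx3cr1, Adgre1 and Cd14 dropped by 2.28 to 4.79 on the log2 scale in EpCAM+ HSPCs, and Lyz2 rose 1.61-fold. Ly6c2, Cybb and Ccr2 did not pass the test. Thus 5 of 9 were called lower, against 20.8% of all genes tested, and 1 of 9 higher, against 21.8%. With the replicate number as a block, Ly6c2 and Cybb were called as well, which made 7 lower and 1 higher. The shares of 20.8% and 21.8% belong to the fit without the block and cannot be set beside these counts. Over the 11 alternative settings, the block among them, 2066 to 3353 genes were called lower and 2578 to 3642 higher. All 9 genes passed the filter on low counts. Cd14 passed only through the EpCAM- libraries. Adgre1 needed EpCAM+ replicate 4 (14 counts) besides EpCAM- libraries, as EpCAM- replicate 2 (8 counts) fell short. With a minimum of 10 counts in every library Cd14 and Adgre1 were not tested and 3 of 7 were called lower. That filter tested 11937 genes, and the shares of the main fit do not apply to it. The median log2 fold change of the 9 genes was -2.28 (range -4.79 to 1.16), against 0.02 over all genes tested, of which 1.41% lay below -2.

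**Figure D1:**
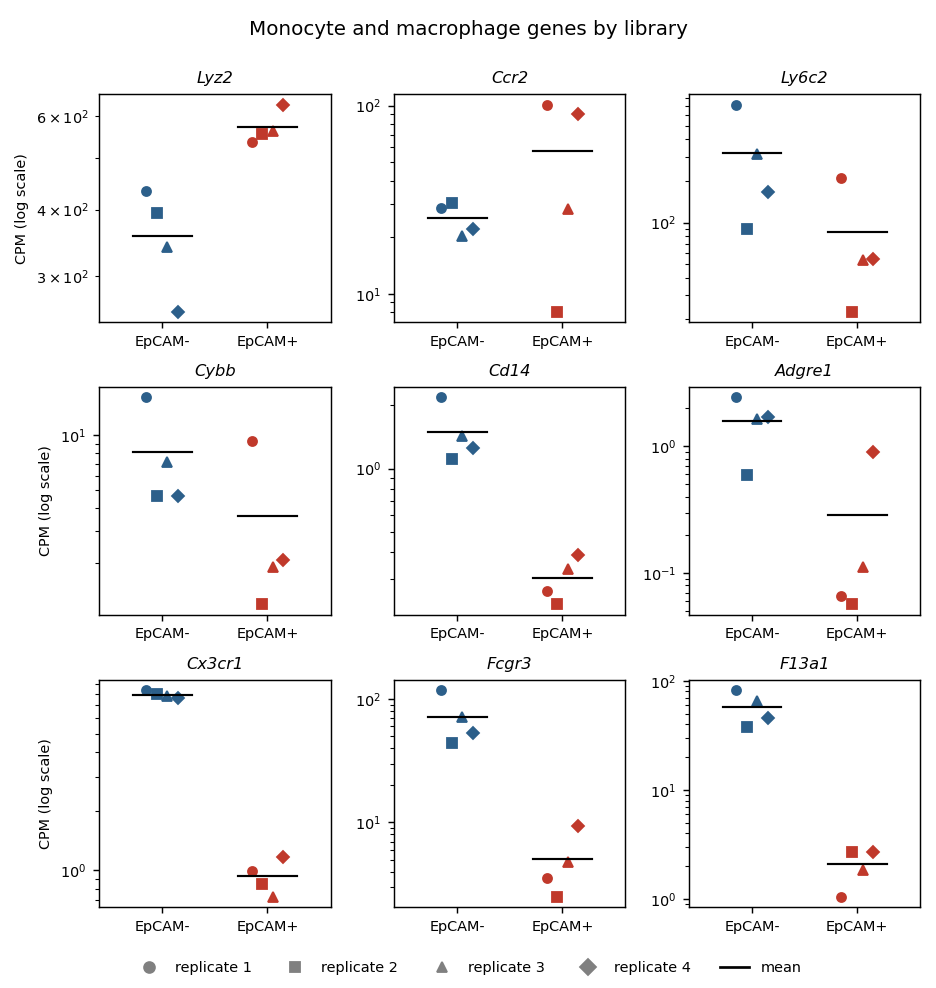
CPM of each of the 9 genes (y axes, log scale, each panel with its own range) in the 4 EpCAM- (blue) and 4 EpCAM+ (red) libraries, with the symbol giving the replicate number and the bar the mean of a fraction. The fractions lie apart in the panels of Lyz2, Cd14, Cx3cr1, Fcgr3 and F13a1 and overlap in those of Ly6c2, Ccr2, Cybb and Adgre1.

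The values of the fractions did not overlap for 5 genes, against 40.1% of all genes tested, with 4 lower and 1 higher in EpCAM+ HSPCs, where 20.0% and 20.1% lay apart in these directions. Within numbered pairs, 7 genes were lower in the EpCAM+ library in 4 of 4 pairs, Lyz2 was higher in 4 of 4, and Ccr2 was higher in 3 of 4. The shares of all genes tested that agree in 4 of 4 pairs were not counted. They are at least the 20.0% and 20.1% that lay apart, since such genes agree in every pair. The libraries shared highs and lows across the genes. EpCAM- replicate 1 was the highest EpCAM- library for 8 of the 9 genes, and EpCAM+ replicate 2 was the lowest EpCAM+ library for 6.

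Of the surface molecules by which monocyte subsets are sorted, Ly6c2 encodes Ly6C, the antigen of classical monocytes (ENSMUSG00000022584, chr15:75108158-75111970 in GRCm38). Its level was 713, 89.8, 312 and 167 CPM in the EpCAM- libraries and 211, 22.7, 53.3 and 54.5 CPM in the EpCAM+ libraries. In both fractions replicate 1 was the highest and replicate 2 the lowest, and the fractions overlapped although the EpCAM+ library was the lower one in every numbered pair. The means were 320 ± 277 CPM in EpCAM- and 85.3 ± 84.9 CPM in EpCAM+ HSPCs (SD, n = 4 each), and the log2 fold change of -1.91 (SE 0.73) did not pass the test (edgeR adjusted p = 0.0564). With the number as a block it did, at -1.97 (SE 0.14, edgeR adjusted p = 4.06e-05). It also passed without EpCAM+ replicate 1 (-2.89, edgeR adjusted p = 0.00905) and without EpCAM- replicate 2 (-2.23, edgeR adjusted p = 0.035), and without EpCAM- replicate 1 the log2 fold change was -1.16. Of the 2737 windows of 150 bases in the exons of Ly6c2, 39 (1.42%) are identical in Ly6c1, which had 5 to 31 counts in EpCAM+ and 2 to 11 in EpCAM- libraries, far below Ly6c2, and was not tested.

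Ccr2 encodes the receptor for CCL2 by which classical monocytes leave the marrow (ENSMUSG00000049103, chr9:124101950-124113557). It stood at 28.6, 30.6, 20.4 and 22 CPM in the EpCAM- libraries and at 101, 8.05, 28.3 and 90.7 CPM in the EpCAM+ libraries. The EpCAM- libraries lay close together, whereas EpCAM+ replicates 1 and 4 lay above all of them and replicate 2 below all of them. The means were 25.4 ± 4.94 and 57 ± 45.9 CPM, and the log2 fold change of 1.16 (SE 0.59) did not pass the test (edgeR adjusted p = 0.135), nor did it with the block (0.76, SE 0.56, edgeR adjusted p = 0.288). Without EpCAM+ replicate 2 it was called higher (1.53, edgeR adjusted p = 0.00888).

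Among the EpCAM+ libraries, Ccr2 moved with genes of dendritic cells. Xcr1, the chemokine receptor of cross-presenting dendritic cells, stood at 147, 11.4, 35.8 and 131 CPM in EpCAM+ replicates 1 to 4, in the same order as Ccr2, and at 0.137 to 0.811 CPM in EpCAM- libraries. Irf8, a factor that monocytes and dendritic cells both need, stood at 475, 48.4, 117 and 388 CPM in EpCAM+ and at 196, 157, 133 and 113 CPM in EpCAM- libraries (log2 fold change 0.78, SE 0.56, edgeR adjusted p = 0.282, and 1.12 at an adjusted p of 0.0415 without EpCAM+ replicate 2). Irf8 was also the gene whose profile over the 8 libraries lay closest to that of Ccr2 (root mean square difference of centred log2 CPM 0.251), followed by Kmo (0.274) and Ppfia4 (0.390). Of the 11 dendritic cell markers, 7 were tested, of which 6 rose in EpCAM+ HSPCs and none fell, beside 21.8% and 20.8% of all genes tested. Among those that rose were Xcr1 (log2 fold change 7.59, SE 0.98, edgeR adjusted p = 0.0004) and Clec9a (6.25, SE 1.17, edgeR adjusted p = 0.0022). Xcr1 had 2 to 13 and Clec9a 0 to 9 counts in EpCAM- libraries. Batf3 and Ccr9, which rose too, had 0 to 10 and 0 to 6 counts there. Xcr1, Clec9a, Batf3 and Ccr9 passed the filter on low counts by their EpCAM+ libraries, so a fall could hardly have been called for them. Zbtb46, the tested marker that was not called, stood at 14.3, 1.87, 4.02 and 13.9 CPM in EpCAM+ libraries. In EpCAM- libraries Zbtb46 stood at 4.93, 5.33, 14.7 and 16.5 CPM. The summed level of the 11 markers was 304 to 671 CPM in EpCAM+ and 156 to 267 CPM in EpCAM- libraries, with Klk1 at 0 throughout. Most of that sum was Flt3, a receptor that LSK progenitors carry as well, at 286 to 464 CPM in EpCAM+ and 136 to 259 CPM in EpCAM- libraries, and the other 10 markers summed to 18.5 to 233 CPM against 7.77 to 19.5 CPM. The part of these markers in the values of Ccr2 was not tested.

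**Figure D2:**
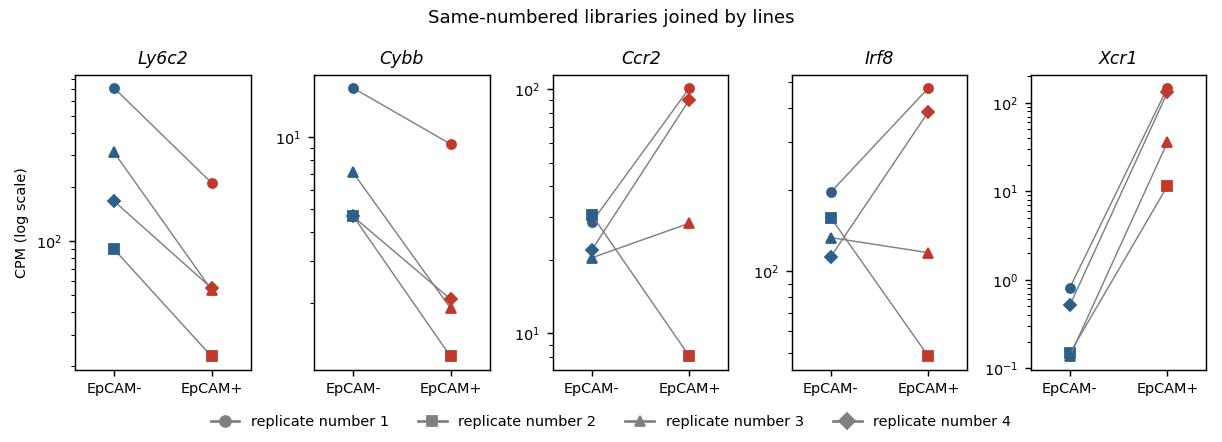
CPM (y axes, log scale, each panel with its own range) of Ly6c2, Cybb, Ccr2, Irf8 and Xcr1, with lines that join the EpCAM- and EpCAM+ libraries of the same replicate number. Ly6c2 and Cybb fall along all 4 lines, Ccr2 rises along 3 and falls along that of replicate 2, and Xcr1 rises along all 4 from below 1 CPM.

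Cx3cr1 encodes the fractalkine receptor of patrolling monocytes and tissue macrophages (ENSMUSG00000052336, chr9:119901616-120069879). It stood at 8.36, 7.99, 7.78 and 7.58 CPM in the EpCAM- libraries and at 0.98, 0.851, 0.726 and 1.17 CPM in the EpCAM+ libraries. The spread within each fraction was small beside the gap between them, with 103 to 134 counts against 13 to 18. Cx3cr1 fell in EpCAM+ HSPCs by 3.09 on the log2 scale (SE 0.20, edgeR adjusted p = 4.21e-05), from 7.93 ± 0.337 to 0.931 ± 0.189 CPM (SD, n = 4 each). Of 4353 windows of 150 bases in its exons none was found in another gene. Gm33858 overlaps Cx3cr1 on the other strand, as Gm30489 does F13a1, and reads of such partners cannot be told apart where the counting ignores strand, a setting not given in the sources used here.

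Besides Cx3cr1 and Ccr2, 8 chemokine receptors and ligands of monocytes were listed, of which 5 were tested. Of these 1 rose and 1 fell (median log2 fold change 0.05), beside 21.8% and 20.8% of all genes tested. Ccr1, a receptor of inflammatory chemokines, fell by 1.56 on the log2 scale (SE 0.40, edgeR adjusted p = 0.010), on 3 to 12 counts in EpCAM+ against 12 to 23 in EpCAM- libraries. Cx3cl1, the ligand of CX3CR1, rose by 1.51 (SE 0.42, edgeR adjusted p = 0.016), a call lost without EpCAM+ replicate 3 (edgeR adjusted p = 0.0539). Cx3cl1 had 13 to 40 counts in EpCAM+ and 4 to 13 in EpCAM- libraries. It passed the filter on low counts by its EpCAM+ libraries, and Ccr1 by its EpCAM- libraries. Ccl8 and Ccl12, further ligands of CCR2, were at 0 in all libraries.

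Fcgr3, which encodes the low-affinity receptor for immunoglobulin G on phagocytes (ENSMUSG00000059498, chr1:171051174-171064935), showed one of the widest gaps. Its level was 118, 43.9, 71.6 and 53.4 CPM in the EpCAM- libraries and 3.53, 2.49, 4.75 and 9.4 CPM in the EpCAM+ libraries. Every EpCAM- library lay above every EpCAM+ library, and EpCAM- replicate 1 and EpCAM+ replicate 4 were the highest of their fractions. Fcgr3 was 14.3-fold lower in EpCAM+ HSPCs (5.04 ± 3.05 against 71.8 ± 33.1 CPM, SD, n = 4 each, log2 fold change -3.84, SE 0.42, edgeR adjusted p = 0.000218). The CD16/32 antibody by which myeloid progenitors are sorted recognizes the products of Fcgr3 and Fcgr2b.

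Among the partners of Fcgr3, Fcgr2b and Fcer1g fell and 5 signalling genes rose. The inhibitory receptor Fcgr2b had 236 to 341 counts in EpCAM+ and 541 to 585 in EpCAM- libraries and fell by 1.14 on the log2 scale (SE 0.17, edgeR adjusted p = 0.00076). Fcer1g, the signalling chain that the product of Fcgr3 needs to reach the surface, fell by 1.11 (SE 0.11, edgeR adjusted p = 0.00018). Fcgr4 had 2 to 15 counts against 11 to 16 (log2 fold change -1.29, SE 0.56, edgeR adjusted p = 0.086, and -2.23 at an adjusted p of 0.00621 without EpCAM+ replicate 1), and Fcgr1, the high-affinity receptor, had 2 to 8 against 0 to 11 and was not tested. Of the 10 genes listed besides Fcgr3, 9 were tested, of which 5 rose and 2 fell (median log2 fold change 0.23), beside 21.8% and 20.8% of all genes tested. All those that rose encode signalling proteins downstream of the receptors. Among them the Src family kinase gene Fgr rose by 2.67 (SE 0.60, edgeR adjusted p = 0.0055), the phosphatase gene Inpp5d by 0.52 and the phospholipase gene Plcg2 by 0.55. Fgr had 39 to 70 counts in EpCAM+ and 0 to 17 in EpCAM- libraries and passed the filter on low counts by its EpCAM+ libraries.

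Cd14 encodes the co-receptor that hands lipopolysaccharide to TLR4 (ENSMUSG00000051439, chr18:36725074-36726736). Its level was 2.18, 1.11, 1.43 and 1.25 CPM in the EpCAM- libraries and 0.262, 0.227, 0.335 and 0.389 CPM in the EpCAM+ libraries. The fractions did not overlap, but the values rest on 15 to 35 counts in EpCAM- and 4 to 6 in EpCAM+ libraries. Cd14 fell by 2.28 on the log2 scale (SE 0.36, edgeR adjusted p = 0.00095), and this low count limits how well its size is known. Of the 9 other genes of the LPS receptor complex, all tested, 1 rose and 2 fell in EpCAM+ HSPCs (median log2 fold change 0.22), beside 21.8% and 20.8% of all genes tested. Ly96, which encodes MD-2, the partner of TLR4, rose by 0.90 (SE 0.18, edgeR adjusted p = 0.003), while the LPS-binding protein gene Lbp fell by 0.64 (SE 0.21, edgeR adjusted p = 0.032), a call kept in 4 of the 8 fits with 1 library left out.

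Adgre1 encodes F4/80, the antigen of mouse macrophages (ENSMUSG00000004730, chr17:57358691-57483527). It stood at 2.43, 0.592, 1.64 and 1.69 CPM in the EpCAM- libraries, which is 8 to 39 counts. In the EpCAM+ libraries it stood at 0.0654, 0.0567, 0.112 and 0.908 CPM, or 1 to 14 counts. EpCAM+ replicate 4 stood apart from the other EpCAM+ libraries and above EpCAM- replicate 2, so the fractions overlapped. Adgre1 fell by 2.50 on the log2 scale (SE 0.74, edgeR adjusted p = 0.020), a call that was lost without EpCAM+ replicate 1 (-2.20, edgeR adjusted p = 0.0508), without EpCAM+ replicate 3 (-2.22, edgeR adjusted p = 0.0609) and without EpCAM- replicate 1 (-2.22, edgeR adjusted p = 0.0508). Without EpCAM+ replicate 4 the log2 fold change was -4.22 (edgeR adjusted p = 0.00186).

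Cybb encodes gp91phox, the catalytic subunit of the phagocyte NADPH oxidase (ENSMUSG00000015340, chrX:9435252-9487771). It stood at 16.1, 4.66, 7.1 and 4.63 CPM in the EpCAM- libraries and at 9.35, 1.19, 1.9 and 2.08 CPM in the EpCAM+ libraries. Replicate 1 was the highest of both fractions, as for Ly6c2, and the EpCAM+ library was the lower one in each pair. The means of 8.12 ± 5.44 and 3.63 ± 3.83 CPM gave a log2 fold change of -1.18 (SE 0.63), which did not pass the test (edgeR adjusted p = 0.156). With the block it was -1.38 (SE 0.24, edgeR adjusted p = 0.00201), and without EpCAM+ replicate 1 it was -2.25 (edgeR adjusted p = 0.00699). Cybb was also the gene closest in profile to Ly6c2 among all genes tested (root mean square difference 0.484).

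Of the 6 other oxidase genes, all tested, 1 rose and 2 fell in EpCAM+ HSPCs (median log2 fold change -0.06), beside 21.8% and 20.8% of all genes tested. Ncf1, which encodes a cytosolic activator of the enzyme, fell by 0.83 (SE 0.24, edgeR adjusted p = 0.018, and 0.0534 without EpCAM+ replicate 3). Cyba, which encodes p22phox, the membrane partner of gp91phox, rose by 0.38 (SE 0.13, edgeR adjusted p = 0.036) and kept its call in 3 of the 8 fits with 1 library left out.

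Lyz2 encodes lysozyme, an antibacterial enzyme of granules made by monocytes, macrophages and neutrophils (ENSMUSG00000069516, chr10:117277331-117282321). It stood at 434, 395, 340 and 257 CPM in the EpCAM- libraries and at 538, 556, 564 and 631 CPM in the EpCAM+ libraries. Every EpCAM+ library lay above every EpCAM- library, on 8225 to 10087 against 3494 to 6949 counts. Lyz2 rose by 0.68 on the log2 scale (SE 0.14, edgeR adjusted p = 0.00391), from 356 ± 76.7 to 572 ± 40.8 CPM (SD, n = 4 each), and by 0.55 to 0.79 with 1 library left out. Lyz1, the lysozyme gene of intestinal Paneth cells, shares no window of 150 bases with Lyz2. It had 11 to 41 counts in EpCAM+ and 0 to 5 in EpCAM- libraries (log2 fold change 4.24, SE 0.85, edgeR adjusted p = 0.0032). It passed the filter on low counts only through the EpCAM+ libraries. All EpCAM- reads of Lyz1 were in replicate 1, without which the fitted value was 7.77.

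F13a1 encodes the A subunit of coagulation factor XIII, which cross-links fibrin and is made in monocytes and megakaryocytes (ENSMUSG00000039109, chr13:36867178-37050244), and it had the lowest log2 fold change of the 9 genes. It stood at 82.6, 37.4, 65.3 and 46.1 CPM in the EpCAM- libraries and at 1.05, 2.72, 1.84 and 2.72 CPM in the EpCAM+ libraries. The lowest EpCAM- library, at 37.4 CPM, lay far above the highest EpCAM+ libraries, at 2.72 CPM. F13a1 was 27.6-fold lower in EpCAM+ HSPCs (2.08 ± 0.806 against 57.9 ± 20.2 CPM, SD, n = 4 each, log2 fold change -4.79, SE 0.33, edgeR adjusted p = 4.21e-05). Of 4 other coagulation factor genes 2 were tested, none rose, and F10, which encodes factor X, fell as well (log2 fold change -2.27, SE 0.36, edgeR adjusted p = 0.00099). Of the 5 tested markers of megakaryocytes and platelets, the other source of factor XIII, 1 rose and none fell (median log2 fold change 0.15). Of all genes tested, 21.8% rose and 20.8% fell.

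**Figure D3:**
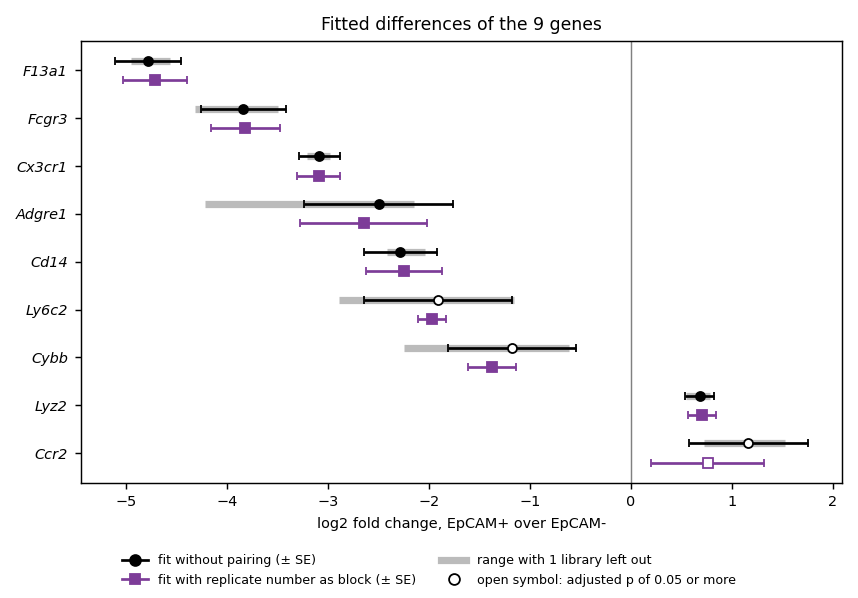
Log2 fold change, EpCAM+ over EpCAM- (x axis), of the 9 genes, with the unpaired fit as circles and the fit with the replicate number as block as squares, both with SE, and the range over fits with 1 library left out as grey bars. Open symbols have an adjusted p of 0.05 or more, and they are Ly6c2, Cybb and Ccr2 in the unpaired fit and Ccr2 alone with the block.

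Per kilobase of exon, the mean levels of the 9 genes ran from Lyz2 and Ly6c2 at the top to Adgre1 at the bottom in both fractions. In EpCAM- HSPCs the mean levels in CPM per kilobase were 271 for Lyz2, 117 for Ly6c2, 41.4 for Fcgr3, 8.59 for F13a1, 3.76 for Ccr2, 1.76 for Cx3cr1, 1.40 for Cybb, 0.951 for Cd14 and 0.491 for Adgre1. The ranges of neighbours overlapped except between Fcgr3 and F13a1, F13a1 and Ccr2, and Ccr2 and Cx3cr1. In EpCAM+ HSPCs the order was Lyz2 (435), Ly6c2 (31.1), Ccr2 (8.44), Fcgr3 (2.91), Cybb (0.625), F13a1 (0.309), Cx3cr1 (0.207), Cd14 (0.193) and Adgre1 (0.0881), and Lyz2 and Ly6c2 alone were neighbours whose ranges lay apart. In the deposited FPKM, which rest on other gene lengths, the order in EpCAM+ HSPCs was the same, while 3 pairs of neighbours exchanged places in EpCAM- HSPCs. Their mean FPKM were 270 for Ly6c2 and 264 for Lyz2, 5.38 for Cybb and 2.03 for Cx3cr1, and 0.968 for Adgre1 and 0.928 for Cd14, so that Cd14 was then the lowest gene.

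**Figure D4:**
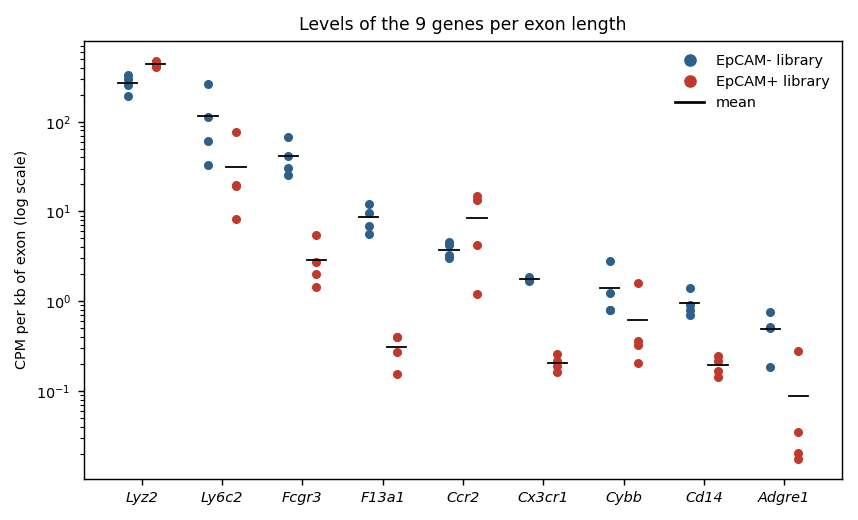
CPM per kilobase of exon (y axis, log scale) of the 9 genes in the EpCAM- (blue) and EpCAM+ (red) libraries, ordered by the EpCAM- mean, with bars for the means. F13a1 stands at 8.59 in EpCAM- and 0.309 in EpCAM+ HSPCs, and Lyz2 is the highest gene in both.

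The genes closest in profile over the 8 libraries differed from member to member (3 per gene, by the root mean square difference of centred log2 CPM). For Fcgr3 they were Dmkn (0.392), Mpo (0.410), which encodes the myeloperoxidase of neutrophil granules, and Trem3 (0.443). For F13a1 they were Cldn15 (0.421), Mtus1 (0.461) and Hp (0.473), which encodes haptoglobin, and for Cx3cr1 they were Ap3s1 (0.292), Il31ra (0.313) and Cst7 (0.327). Cd14 lay closest to Rgcc (0.198), F10 (0.216) and Alas1 (0.243), and Adgre1 to Gpx3 (0.578), Alox5 (0.612) and F10 (0.621). Lyz2 lay closest to Ncoa7 (0.0659), Zfp286 (0.0850) and Kif13b (0.0863). Cybb was followed for Ly6c2 by Gm21188 (0.524) and Hsd11b1 (0.647), and Hsd11b1 (0.411), Ly6c2 and Ms4a4c (0.489) were closest to Cybb.

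Beyond the 9 genes, a list of 45 further monocyte and macrophage genes did not move one way. Of these 29 were tested, of which 6 rose and 7 fell in EpCAM+ HSPCs, 20.7% and 24.1% beside 21.8% and 20.8% of all genes tested, with a median log2 fold change of 0.21. Csf1r, which encodes the M-CSF receptor, stood at 30.8, 22.8, 23.5 and 17 CPM in EpCAM- and at 0.784, 1.76, 1.51 and 3.11 CPM in EpCAM+ libraries (log2 fold change -3.71, SE 0.33, edgeR adjusted p = 0.00012). Slc40a1, the iron exporter ferroportin, fell by 3.37 (SE 0.46, edgeR adjusted p = 0.00051). Treml4 and Mpeg1, which dendritic cells carry too, rose by 5.46 (SE 1.01, edgeR adjusted p = 0.0021) and 3.33 (SE 0.70, edgeR adjusted p = 0.0041). Treml4 had 21 to 442 counts in EpCAM+ and 2 to 10 in EpCAM- libraries. It passed the filter on low counts by its EpCAM+ libraries, so a fall could hardly have been called. Within the EpCAM+ fraction, Mpeg1 stood at 78.5, 6.24, 17.2 and 60.2 CPM in replicates 1 to 4, with the same libraries high and low as Ccr2. Among genes of resident macrophages, Mertk had 0 to 4 counts in EpCAM+ and 0 in EpCAM- libraries, and C1qa, C1qb and C1qc had 3 to 73 against 1 to 58, whereas Cd163 had 221 to 312 against 212 to 312. Ace was at 0 throughout. Itgam, the target of the MAC1 antibody, had 30 to 56 counts in EpCAM+ and 25 to 85 in EpCAM- libraries (log2 fold change -0.37, SE 0.36, edgeR adjusted p = 0.42). Ly6g, a target of GR1, had 0 to 3 in each fraction. Ly6c2, which encodes the Ly6C that GR1 binds to a lesser degree, had 400 to 3223 in EpCAM+ and 1214 to 11423 in EpCAM- libraries.

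Of the 14 factors that direct the monocyte lineage 12 were tested, of which 4 rose and 3 fell (median log2 fold change 1.16), beside 21.8% and 20.8% of all genes tested. Spi1, which encodes PU.1, stood at 280, 306, 219 and 188 CPM in EpCAM- and at 295, 213, 195 and 256 CPM in EpCAM+ libraries, and its log2 fold change of -0.05 (SE 0.17, edgeR adjusted p = 0.83) turned to 0.03 with upper quartile scaling and with library totals. Cebpa, the C/EBP factor of myeloid commitment, fell by 1.38 (SE 0.18, edgeR adjusted p = 0.0004). Zeb2, the paralog of Zeb1, fell by 0.60 (SE 0.07, edgeR adjusted p = 0.00033), from 75.3 to 87.3 CPM in EpCAM- to 49.2 to 54.1 CPM in EpCAM+ libraries. Irf5 and Bhlhe40 rose by 2.46 (SE 0.46, edgeR adjusted p = 0.0023) and 2.78 (SE 0.46, edgeR adjusted p = 0.0012). Bhlhe40 had 94 to 123 counts in EpCAM+ and 2 to 29 in EpCAM- libraries and passed the filter on low counts by its EpCAM+ libraries. Maf, a factor of macrophages and plasma cells, had 14 to 26 counts in EpCAM+ and 0 to 3 in EpCAM- libraries, at least 5.88-fold higher.

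Of the 6 tested genes of the M-CSF and GM-CSF receptor list 2 fell and none rose, and besides Csf1r the common beta chain Csf2rb fell by 0.42 (SE 0.15, edgeR adjusted p = 0.044), a call kept in 3 of the 8 fits with 1 library left out. Of 7 other Ly6 genes, 4 were tested, of which 3 rose and none fell. Beside both lists stand 21.8% of all genes tested that rose and 20.8% that fell. Ly6a, which encodes the sorting antigen Sca-1, rose by 2.28 (SE 0.53, edgeR adjusted p = 0.0066), and Ly6d, a lymphoid antigen, by 4.94 (SE 0.88, edgeR adjusted p = 0.0017). Ly6d had 81 to 758 counts in EpCAM+ and 4 to 13 in EpCAM- libraries. It passed the filter on low counts by its EpCAM+ libraries, so a fall could hardly have been called.

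**Figure D5:**
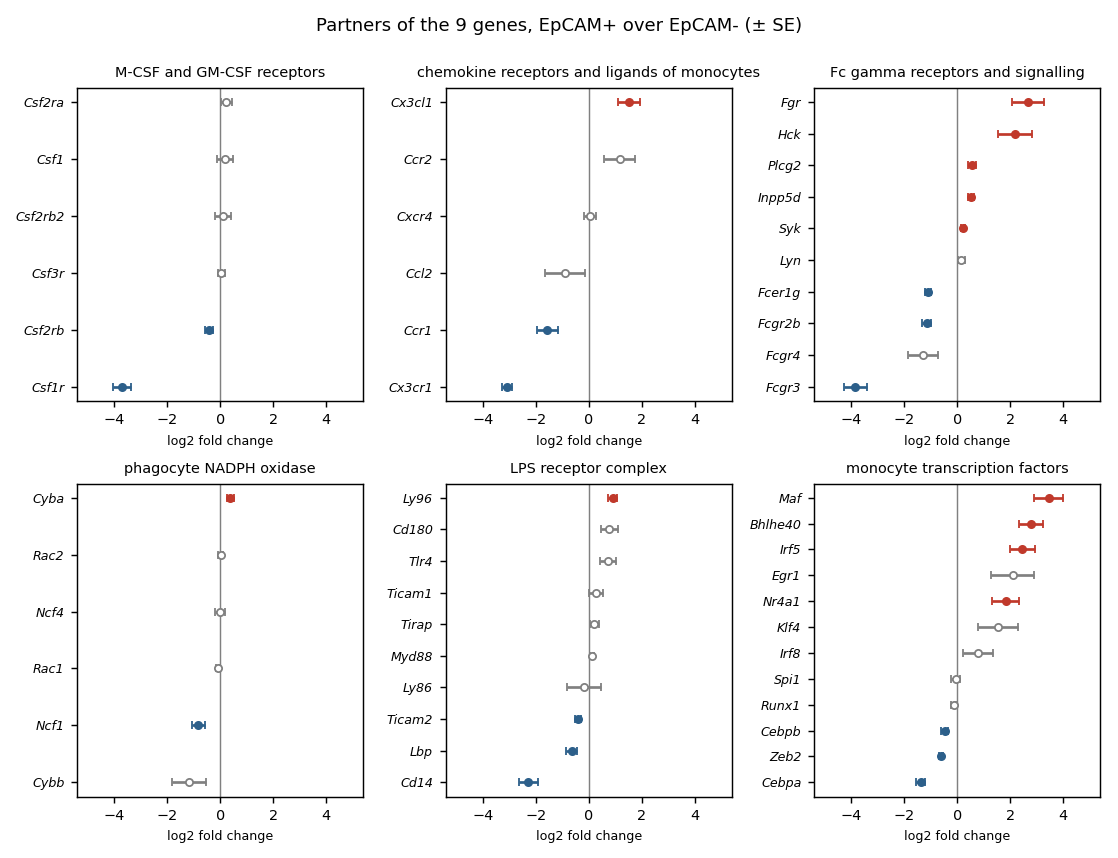
Log2 fold change, EpCAM+ over EpCAM- (x axes), with SE, of tested genes of 6 lists that hold partners of the 9 genes, without the genes that are not reported here. Filled red symbols rose and filled blue symbols fell at an adjusted p under 0.05, and open symbols did not pass the test, with Csf1r (-3.71), Fcgr3 (-3.84) and Cx3cr1 (-3.09) at the low end and Maf, whose fitted value rests on 0 to 3 EpCAM- counts, Bhlhe40 (2.78) and Fgr (2.67) at the high end.

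Markers of other cell types moved with the same contrast. Of 11 tested genes of the neutrophil lineage 6 fell and none rose in EpCAM+ HSPCs, among them Mpo (log2 fold change -3.74, SE 0.23, edgeR adjusted p = 3.8e-05) and Elane (-4.86, SE 0.51, edgeR adjusted p = 0.00018), and the list summed to 11950 to 18582 CPM in EpCAM- against 1100 to 1855 CPM in EpCAM+ libraries. Elane stood at 3362, 861, 2033 and 1085 CPM in EpCAM- replicates 1 to 4, the order of Fcgr3, F13a1 and Ly6c2 in the same libraries. Of 7 tested erythroid markers 4 fell and 1 rose (279 to 671 CPM in EpCAM- against 36.4 to 81.2 CPM in EpCAM+ libraries), and of 6 mast cell and basophil markers 3 fell and none rose (402 to 678 CPM against 267 to 292 CPM). In the other direction, 2 of 3 tested plasma cell markers rose (2.72 to 8.93 CPM in EpCAM- against 212 to 3611 CPM in EpCAM+ libraries, with EpCAM+ replicate 1 the highest), as did 2 of 3 tested B cell markers, with Pax5 at 0, and 7 of 8 markers of stem cells and the LSK gate (958 to 1449 CPM in EpCAM- against 1771 to 2184 CPM in EpCAM+ libraries). Of all genes tested, 20.8% were lower and 21.8% higher. Some of these markers, those of plasma cells that rose among them, passed the filter on low counts only through the fraction in which they are higher. For them a call in the other direction was hardly possible. The part of any of these lists in the values of the 9 genes was not tested.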

How the data were processed

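RNA of Zeb1-/- EpCAM+ and EpCAM- LSK cells was amplified with SMART-Seq v4, 1 ng of cDNA went into each library, and 150-bp paired ends were sequenced. Per the submitters' processing notes, reads were aligned to GRCm38.p6 with STAR 2.6.1d, counted with featureCounts 1.5.0-p3 and compared with DESeq2 1.20.0. The authors deposited 8 columns of whole-number read counts per gene, without normalization, and 8 columns of FPKM, made from these counts and a gene length. Every row names a gene. The 15 columns of the authors' comparisons (log2 fold changes, p-values and adjusted p-values) were not used. The annotation release, the strand setting and the handling of reads that match several genes are not given in the sources used here.

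The 4 libraries of each fraction are replicates by their labels. No library is tied to a mouse, so p-values measure the spread between these libraries, which may be technical. Counts were scaled by TMM, kept by filterByExpr (minimum count 10) and tested over all genes with edgeR 4.0.16 (quasi-likelihood, two-sided, no covariate, Benjamini-Hochberg, threshold 0.05) in R 4.3.3. A gene could pass this filter through either fraction alone, and a call in the other direction was then hardly possible. CPM use the TMM-scaled library size, log2 CPM a prior count of 2, and SE were derived from the F statistic. Where all libraries of a fraction held 3 counts or fewer, the fold is a bound against 3 counts per library. Such floors cover counting error only. FPKM were used for the order of levels alone, with no test. Matplotlib 3.10.9 under Python 3.11.15 drew the figures.

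The replicate numbers pair the libraries. Deviations from the fraction means correlated across genes at 0.205 to 0.356 in the 4 pairs with the same number and at -0.216 to 0.0396 in the 12 pairs with different numbers. Genes are not independent replicates, and what a number shares is not stated. No 2 libraries of a fraction were duplicates (chi-square of their counts, divided by its degrees of freedom, 10.6 to 98.5).

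The 9 genes, the gene lists and the design were chosen with earlier results of these data known. Genes named are the 9, their near relatives, Epcam, Zeb1, Itgam and Ly6g, up to 3 called genes per list and direction with the smallest adjusted p, and the 3 genes closest in profile to each of the 9. Spi1, Mertk, Cd163, Flt3, Batf3, Ccr9, Zbtb46, Ccl8, Ccl12 and the C1q genes were named after their values were seen. A few genes of the lists are not reported here. Lists of T cell (1 of 1 tested gene higher), eosinophil (1 of 3 lower) and adhesion receptor genes (besides Adgre1, 1 tested and not called) were run too, and no natural killer cell marker was tested. The procedure was also run on simulated counts with 200 changed genes, drawn with the same dispersion for all genes and no link between libraries. That run cannot show how the test performs on libraries linked by number, as here. Alternatives were DESeq2 1.42.0, limma-trend (limma 3.58.1, pseudocounts 1, 0.1 and 5), other scaling and filters, protein-coding genes alone, the replicate block, and each library left out.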

Additional observations from a re-analysis of the deposited data

Results flagged for a closer look

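In 3 of the 18 sets of 4 values (9 genes in 2 fractions), the highest library stood far from the other 3 of its fraction by Dixon's ratio. Chance gives about 1 in 20 for independent, normally distributed values. CPM of genes that share libraries need not meet this, so 3 of 18 cannot be weighed against that rate. Ly6c2 was at 211 CPM in EpCAM+ replicate 1, while the other EpCAM+ libraries held 22.7 to 54.5 CPM. Cybb was at 9.35 CPM in the same library, against 1.19 to 2.08 CPM in the others. Adgre1 was at 0.908 CPM in EpCAM+ replicate 4, against 0.0567 to 0.112 CPM in the others.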

How the results depend on the processing

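The direction of all 9 genes was the same under every alternative run. Of 97 values of the 9 genes under other settings, 91 stayed on the same side of the threshold and 6 newly passed it. Ly6c2 passed with limma-trend (log2 fold change -1.95, -1.97 and -1.87 with pseudocounts of 1, 0.1 and 5), with a filter of 1 count in any library (-1.93) and with the replicate number as a block (-1.97), and Cybb with the block (-1.38). The pairing block changed no other call among the 9 genes or the partners followed in the same fits. Requiring 10 counts in every library left 3 genes called lower, because Cd14 and Adgre1 were then not tested. It left 27 genes of the lists called higher instead of 43, with 11937 genes tested in all instead of 13560. With 1 library left out, 4 to 6 of the 9 genes were called lower and 1 to 2 higher. In the same fits 2271 to 2950 of 13747 to 13943 genes tested were called lower and 2391 to 3089 higher. The log2 fold change then ran from -2.89 to -1.16 for Ly6c2 and from 0.72 to 1.53 for Ccr2. It ran from -4.22 to -2.15 for Adgre1 and from -2.25 to -0.61 for Cybb. Spi1 changed sign with upper quartile scaling (0.0304), with library totals (0.0259) and in 4 of the 8 fits with 1 library left out (-0.173 to 0.0564). Upper quartile scaling and library totals moved the median of all genes from 0.02 to 0.11 and the share of higher genes among calls from 51.2% to 63.6% and 62.7%. A pseudocount of 5 shrank the low genes (Cd14 to -0.29, Adgre1 to -0.31). The depth limits Cd14 and Adgre1, with 4 to 6 and 1 to 14 counts in EpCAM+ libraries. The causes of these shifts were not tested beyond what the settings themselves change.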
